A study of Mus musculus with 12 samples.

Results

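Ribosome footprints were set against RNA within the lymphomas labelled Eμ-Myc/+ Prps2null. The samples were chosen by their labels alone: 3 Ribo-seq and 3 RNA-seq libraries, numbered 1 to 3 in each assay, which make 6 of the 12 libraries in the series. The Eμ-Myc transgene drives the Myc oncogene in B-lineage cells from an immunoglobulin heavy-chain enhancer, and Prps2null animals lack PRPS2, an enzyme that makes the activated ribose on which purines and pyrimidines are built. The study asked how such lymphomas grow despite a shortage of nucleotides. By the labels, frozen lymphoma cells were thawed and injected into a tail vein of C57BL/6 males 8 weeks of age, no drug was given, and B cells were then purified from lymph nodes. The study's methods for these libraries speak of lymphoma cells from tumor-bearing mice of this genotype and name no transfer, so which mice gave the cells is not settled. All 6 libraries share the transgene and the Prps2 deletion by their labels. Where a transfer took place, the host carried neither, and its own B cells would also pass such a purification. The labels name the replicates biological but do not say whether they are separate lymphomas, so each p-value below measures the spread between these samples.

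A messenger RNA bearing many ribosomes leaves many nuclease-protected fragments, and the ratio of these fragments (ribosome-protected fragments, RPF) to the RNA of the same transcript is the usual genome-wide measure of translation efficiency. Short open reading frames ahead of the main one (uORFs) are known to hold ribosomes back from the main frame. Ribosomal proteins and several elongation factors are encoded by TOP mRNAs, which start with a C and a run of pyrimidines at the 5′ end and whose loading onto ribosomes is controlled by the growth kinase mTORC1. The RNA here was total RNA, not selected for a poly(A) tail.

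The 5′ ends of a few transcripts show these features. They are parts of the annotated 5′ UTR of the transcript, 5′ to 3′, from the sequence table supplied with the study. The 6 that follow are among the lowest in ratio of the transcripts whose listed 5′ UTR holds an ATG, and capitals mark each ATG in the window.
Lars2: ttgttttgccaacATGgcggcgcccagagt
Wdr89: tttatacccctggATGcttctactgac
BC005537: agcgggcATGgaggggctccgtcggcccgt
Zfp664: tcccgcccaggtgATGaggacctccccgcg
Lcor: cgggcggcagaagATGgcgagggtgtgtag
9430015G10Rik: tccagaattggaaATGcccagcttgcctgc

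The next 3 encode a poly(A)-binding protein and 2 proteins of the large ribosomal subunit, and capitals mark the TOP run at the first base.
Pabpc1: CCCCTTCTCCCCggcggttagtgct
Rpl4: CTTTTCCTgtgggagcagccgggta
Rpl32: CTTCCTTCTTCCTCggcgctgccta

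Without Ribo-seq replicate 2 the log2 ratios of Trp53, Spint2 and Cbr3 below fell from 5.36, 4.32 and 4.17 to 1.55, 2.33 and 1.83. With all libraries, the last 4 have among the highest ratios of transcripts with no ATG in a complete 5′ UTR. They show its first 25 bases with nothing to mark.
Trp53: tttcccctcccacgtgctcaccctg
Spint2: tcggacgggtggaggctttcacagt
Cbr3: agcagtcgcagcgccgggtcccaga
Nup43: ggggcgggcctgaggagcgcgcagt

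In RefSeq's annotation of GRCm38.p6, the assembly that mm10 names, Lars2 lies at chr9:123366927-123462675 on the plus strand and Wdr89 at chr12:75630594-75669537 on the minus strand. Lcor lies at chr19:41482682-41596161 (plus), Zfp664 at chr5:124862705-124888630 (plus) and 9430015G10Rik at chr4:156109998-156127265 (plus). Rpl4 lies at chr9:64173387-64178562 (plus), Trp53 at chr11:69580348-69591873 (plus), Spint2 at chr7:29256330-29282059 (minus) and Cbr3 at chr16:93683219-93690991 (plus).

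The deposited table gave 1 value per library for 20561 transcripts. By the study's methods each gene was represented by its isoform of longest coding sequence, but a few names, Txnrd2 among them, were paired with more than 1 transcript. Totals ran from 4135908 to 5273696 counts in RNA-seq and from 975201 to 1811114 in Ribo-seq, replicate 2 being the shallowest Ribo-seq library, where 3 counts equal 3.08 CPM (the count scaled to the library's total). Values below are normalized counts, that is, counts divided by a size factor from the median of ratios over the 6 libraries, so a log2 ratio of footprints to RNA of 0 marks the typical transcript among those counted in every library and not equal numbers of molecules (the median over all transcripts tested was -0.40). RNA libraries correlated with each other at Spearman's rho of 0.932 to 0.982 across transcripts and Ribo-seq libraries at 0.944 to 0.986, while a Ribo-seq and an RNA library correlated at 0.479 to 0.683 (transcripts are not independent replicates). The low end belonged to RNA replicate 1 (0.479 to 0.509), RNA replicates 2 and 3 standing at 0.623 to 0.683. Of the B cell markers, Cd79a, Cd74, Ms4a1, Blnk, Cd72 and Vpreb3 could be looked up and were counted in all 6 libraries, at a summed 451 to 914 CPM in RNA-seq and 1781 to 2656 CPM in Ribo-seq. No T cell or erythroid marker could be looked up by name.

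The deleted gene was read before all others. Prps2 (ENSMUST00000026839) stood at normalized RNA counts of 41.6, 26.2 and 27.1 and at normalized footprint counts of 10.5, 291 and 19.5 in replicates 1, 2 and 3. The Ribo-seq library labelled Eμ-Myc/+ Prps2null replicate 2 therefore goes against its label, while the RNA library of the same number did not stand above the other RNA libraries. Genotypes were not compared, so these RNA counts alone do not show whether that RNA library fits its label. With this library the log2 ratio of Prps2 was 1.68 (SE 1.00, adjusted p = 0.168, from the quasi-likelihood test in edgeR, adjusted by Benjamini-Hochberg), and without it the ratio was -0.98 (adjusted p = 0.0960). Slc15a3 (ENSMUST00000025646), which encodes a dipeptide and histidine transporter, showed the opposite order, with normalized footprint counts of 82.9, 18.01 and 80.5 against normalized RNA counts of 34.2, 44.9 and 34.5. Its log2 ratio was 0.70 (adjusted p = 0.227) with all libraries and 1.20 (adjusted p = 0.00335) without Ribo-seq replicate 2. Values without that library are given beside the results it changes most.

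Footprints and RNA were divided differently among transcripts: the transcript with the most counts took 4.97% to 7.88% of an RNA library and 0.226% to 0.265% of a Ribo-seq library. Of 12386 transcripts that passed the filter on low counts, 2832 (22.9%) had significantly more footprints for their RNA than the typical transcript and 5123 (41.4%) had significantly fewer (edgeR, adjusted p under 0.05). Of the latter, 1659 had no footprint in any Ribo-seq library and passed the filter through their RNA alone. Over the 10727 tested transcripts with some footprint, the shares were 26.4% and 32.3%, and the middle 50% of log2 ratios ran from -1.22 to 0.77. Over the 7976 transcripts with at least 10 counts in every library the shares were 36.2% and 24.2%. The low tail was the longer one: 1118 transcripts with some footprint lay at least 8-fold below the typical transcript and 34 lay as far above it. The split rests on the scale chosen for the 2 assays: scaling by library totals shifted the median ratio by 0.66 (log2) and turned it to 4699 with more and 3824 with fewer, so that the share of calls with more footprints went from 35.6% to 55.1%. Ratios are therefore best read against one another.

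**Figure D1:**
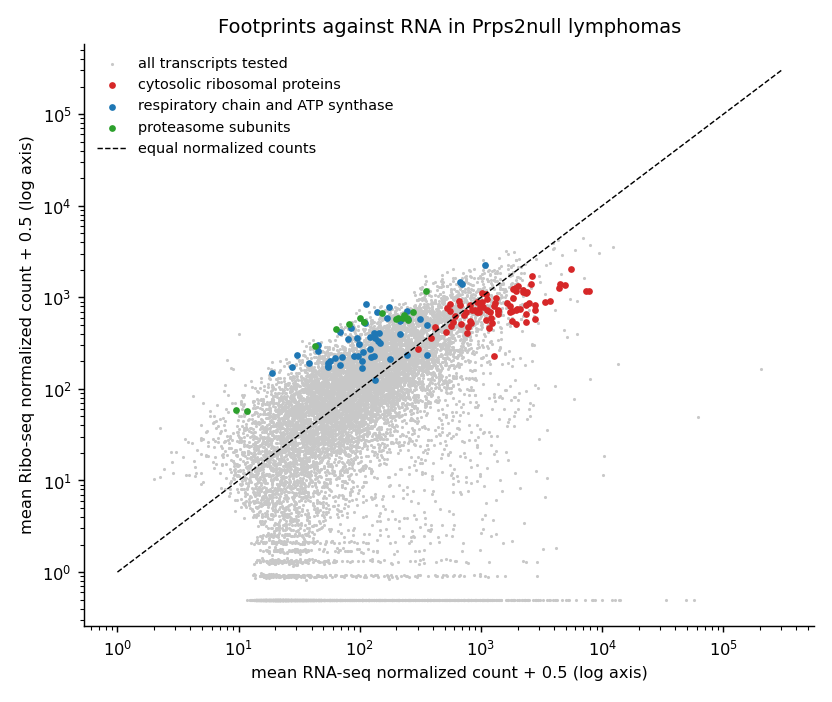
Mean normalized Ribo-seq count against mean normalized RNA-seq count of the 12386 transcripts tested (grey), each with 0.5 added, both axes logarithmic, over 3 libraries per assay. Ribosomal protein transcripts (red) lie mostly below the dashed line of equal normalized counts and proteasome (green) and respiratory chain transcripts (blue) mostly above it, and the row of grey points along the bottom holds the 1659 tested transcripts with no footprint.

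Without Ribo-seq replicate 2, over the transcripts tested with all libraries, 3214 had more and 5071 had fewer footprints. Of the original calls, 97.5% of those with more and 94.4% of those with fewer footprints were made again, and 0 were made in the opposite direction. The rerun shares 5 of the 6 libraries, so such agreement is no independent check. The calls with fewer footprints also include the 1659 transcripts without any footprint, which could not have gone the other way. With the filter rerun on the 5 libraries, 15015 transcripts were tested, of which 21.5% had more and 49.0% had fewer.

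A large part of the RNA lay on transcripts with no footprint at all. Of all transcripts deposited, 8056 (39.2%) had a value of 0 in all 3 Ribo-seq libraries. Of the 10445 transcripts with at least 100 RNA counts over the 3 RNA libraries, 1103 (10.6%) had no footprint, and of the 114 with at least 10000 RNA counts, 34 (29.8%) had none. A typical transcript with 100 RNA counts carried 50.4 footprint counts over the 3 Ribo-seq libraries. A floor of 3 counts over those libraries therefore places a transcript at the 100-count limit at least 16.8-fold lower than the typical transcript, and the median bound over the 1103 was at least 39.6-fold lower (counting error only). These 1103 took 22.1% of all RNA counts in replicate 1, 14.2% in replicate 2 and 12.4% in replicate 3. Their share of the library was highest in RNA replicate 1 for 1040 of them (94.3%), against 2071 of 9342 transcripts (22.2%) with the same RNA minimum and some footprint. Leaving out replicate 1, 2 or 3 in both assays left 746, 798 and 923 such transcripts, with the same minimum summed over the remaining RNA libraries.

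None of the 1103 could be paired with a gene name. The one with the most RNA, ENSMUST00000168033, had 96557, 78586 and 56842 RNA counts and 0 footprints, at least 38951.5-fold lower than typical by the same floor. Reads of ribosomal and transfer RNA were removed from Ribo-seq, and no such step is stated for RNA-seq. The floor does not cover that difference, and its part in these zeros was not tested. Of all transcripts in the table, ENSMUST00000020488 had the most RNA, with 326116, 286718 and 240617 counts, or 7.88%, 5.44% and 4.97% of the 3 libraries. It carried 139, 90.9 and 119.7 footprint counts, and its log2 ratio was -10.31 (SE 0.77, adjusted p = 2.13e-05). The reverse was rare: 10 transcripts had some footprint and 0 RNA counts in all libraries, and 12 had at least 100 footprint counts with under 30 RNA counts.

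Gene names were available for 2594 of the tested transcripts. Named transcripts were not a random draw, since 75.5% of them came by their name from a list that the study had selected for raised translation efficiency on these same libraries among others. Of the named transcripts, 43.8% had more and 13.8% fewer footprints for their RNA, with a median log2 ratio of 0.62, against -0.74 for those without a name (-0.35 for those without a name that had some footprint). Outside that list, the median was 0.64 for the 405 tested transcripts named through the 5′ UTR table and -1.14 for the 230 named only through another table of genes that the study had selected. The gene groups below are accordingly set beside the named background.

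At the low end, the 10 named genes with the lowest ratios ran from -3.99 to -9.64 (log2). Tmem38b, which encodes a cation channel of the endoplasmic reticulum, had normalized RNA counts of 12947, 8665 and 8560 and normalized footprint counts of 15.8, 0 and 17.3. Its log2 ratio of -9.64 (SE 0.62, adjusted p = 1.74e-05) was the lowest. Lars2, the mitochondrial leucyl-tRNA synthetase, had 19498, 11012 and 10249 in RNA and 192, 182 and 184 in footprints. The footprint values were close to each other while RNA replicate 1 stood above the others, and the log2 ratio was -6.19 (SE 0.39, adjusted p = 1.74e-05). Wdr89, a WD-repeat protein gene, had 2757, 2264 and 2616 in RNA and 76.6, 61.4 and 70.1 in footprints, with little spread in either assay and a log2 ratio of -5.18 (SE 0.24, adjusted p = 1.73e-05). Lars2 and Wdr89 are 2 of the transcripts whose upstream ATG is printed above. An ATG was held by 40.7% of complete 5′ UTRs, and its part in these 2 ratios was not tested. The removal of ribosomal and transfer RNA reads, stated for Ribo-seq and not for RNA-seq, also sets the assays apart for these 10 genes. Its part in their ratios was not tested.

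Among the other low genes were a cytokine receptor and a transcription factor of blood cells. Il21r, the interleukin-21 receptor, had normalized RNA counts of 945, 430.5 and 331 and footprint counts of 8.77, 7.61 and 16.3 (log2 ratio -5.55, adjusted p = 3.50e-05). Meis1, a homeobox transcription factor of blood stem cells, stood at -3.99 (adjusted p = 5.18e-04). Rnf144a, an E3 ubiquitin ligase, was at -4.74, Sfxn3, a mitochondrial amino acid transporter, at -4.43, Ttc39b at -4.34 and D430019H16Rik at -4.56. In all 10 low genes the RNA of replicate 1 was the highest of the 3. The rule that named them required that footprint and RNA values not overlap.

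At the high end, the same rule on overlap held for the 10 named genes with the highest ratios, and 6 of them had a footprint value in Ribo-seq replicate 2 far above the other replicates. Of the 4 without it, Lamp2, a lysosomal membrane protein, had normalized RNA counts of 11.1, 21.0 and 22.8 against 195, 163 and 238 footprints (log2 ratio 3.41, SE 0.31, adjusted p = 3.38e-05). Ly6d, a surface antigen of B-lineage progenitors, had 25.9, 31.5 and 41.9 against 246, 471 and 274 (log2 ratio 3.29, SE 0.32, adjusted p = 4.57e-05). Nup43, a nuclear pore subunit, had 12.95, 15.1 and 8.02 against 132, 76.2 and 158 (3.35, SE 0.38, adjusted p = 1.03e-04). Mgst1, a microsomal glutathione transferase, stood at 3.50 (SE 0.48, adjusted p = 2.79e-04).

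In the 6 others replicate 2 stood apart. Trp53, which encodes the tumor suppressor p53, had normalized footprint counts of 17.9, 1133 and 33.8 against RNA counts of 12.95, 9.32 and 6.17. Its log2 ratio of 5.36 (SE 1.48, adjusted p = 0.0101) became 1.55 (adjusted p = 0.0363) without replicate 2. Spint2, a serine protease inhibitor, had footprint counts of 35.7, 436 and 39.8 and went from 4.32 to 2.33. Cbr3, a carbonyl reductase, had 32.7, 432 and 24.2 and went from 4.17 to 1.83, and Cyp39a1, an oxysterol hydroxylase, had 68.4, 388 and 53.6 and went from 3.29 to 1.97. The collagen genes Col3a1 (35.3, 486 and 89.99 footprints) and Col1a2 (24.4, 241 and 60.6) went from 4.72 to 3.18 and from 3.89 to 2.68. All 6 still passed the threshold without that library, as the rule for naming them required.

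**Figure D2:**
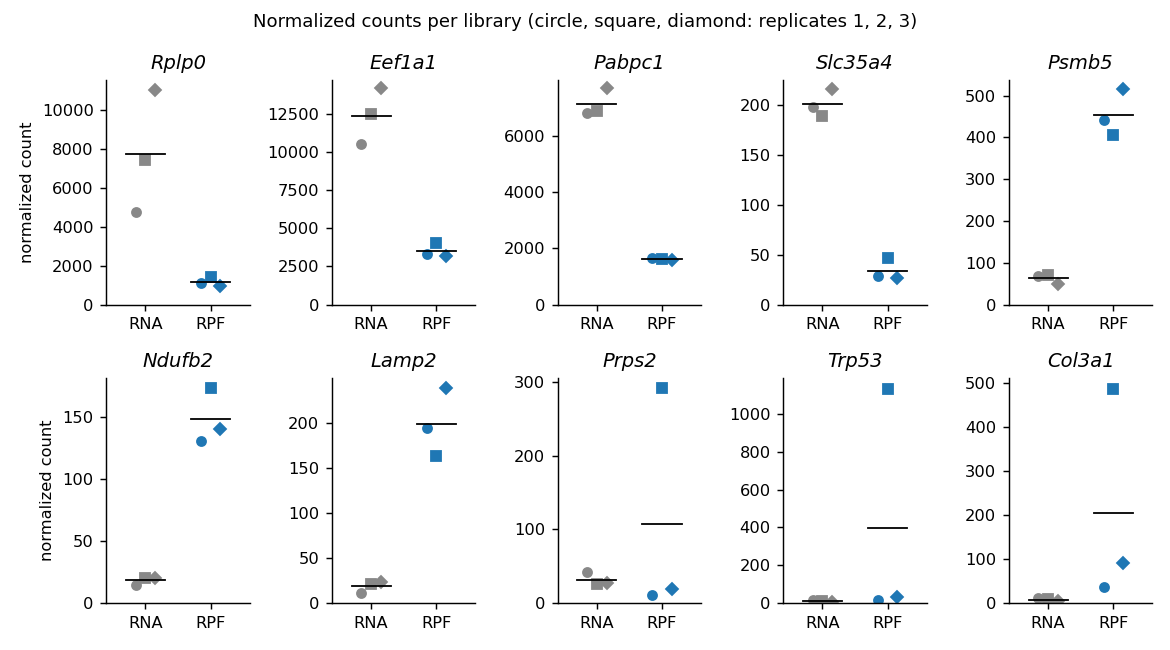
Normalized counts of 10 genes in each of the 6 libraries, RNA-seq in grey and Ribo-seq (RPF) in blue, with a bar at the mean of 3 and every vertical axis starting at 0. The upper row except Psmb5 has fewer footprints than RNA in every library, Psmb5, Ndufb2 and Lamp2 have more, and Prps2, Trp53 and Col3a1 owe their high mean to the square, Ribo-seq replicate 2 (291, 1133 and 486).

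The cytosolic ribosome stood at the low end of the groups. Of 47 transcripts for proteins of the large subunit, 0 had more footprints and 29 had fewer (61.7%), and of 32 for the small subunit, 0 had more and 16 had fewer (50%), where 13.8% of named transcripts had fewer. Their median log2 ratios were -0.87 and -0.75, and no member reached the median of named transcripts. Rplp0, a protein of the ribosomal stalk, had normalized RNA counts of 4761, 7463 and 11063 and footprint counts of 1128, 1437 and 951 (log2 ratio -2.73, SE 0.36, adjusted p = 2.15e-04). Rpsa, of the small subunit, had 5743, 6961 and 9186 against 1038, 1529 and 969 (-2.63, SE 0.30, adjusted p = 1.07e-04). Footprint values of both genes lay below every RNA value. Rpl4, whose TOP start is printed above, stood at -1.46, Rps3a1 at -1.68 and Rpl32 at -0.70 (adjusted p = 0.0499, and 0.0770 to 0.228 without any one library but RNA replicate 1), while Rpl24 (0.61, adjusted p = 0.167) and Rps10 (0.55, adjusted p = 0.0899) had the highest values and did not pass.

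The size of this difference depended on which libraries were set together. Taking each Ribo-seq library against the RNA library of its number, the median of the large subunit was -0.25, -0.74 and -1.39 in replicates 1, 2 and 3, and that of the small subunit -0.27, -0.57 and -1.31. Same-numbered libraries did not deviate together, and the labels do not say whether they share a lysate. Whether these medians are values per lymphoma is therefore not settled. Without Ribo-seq replicate 2 the medians were -0.83 and -0.70, with 26 and 16 transcripts called lower. Under library totals the medians were -0.24 and -0.12, and 15 large and 7 small subunit transcripts had fewer footprints while 4 and 3 had more. Many of these genes have near-identical pseudogene copies that could share their reads, and how reads with several matches were treated is not given in the sources used here.

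The rest of the translation machinery was not uniform. Among 6 elongation factor transcripts, Eef1a1 (-1.82, adjusted p = 4.59e-04), Eef1b2 (-1.40, adjusted p = 4.21e-04) and Eef2 (-0.85, adjusted p = 0.0105) had fewer footprints, Eef1d (1.03, adjusted p = 0.00179), of the complex that recharges Eef1a1, and Eef1e1 (1.94, adjusted p = 4.33e-04), a scaffold of the aminoacyl-tRNA synthetase complex, had more, and Eef1g (-0.08, adjusted p = 0.741) did not pass. Eef2 did not pass without Ribo-seq replicate 1 (adjusted p = 0.0803) or 3 (adjusted p = 0.0603). With library totals, 2 of the 6 elongation factor transcripts had fewer and 2 had more. Eef1a1, which delivers aminoacyl-tRNA to the ribosome, had 10508, 12454 and 14176 in RNA against 3307, 4061 and 3163 in footprints. Of 18 initiation factor transcripts, 11 had more (61.1%, against 43.8% of named transcripts) and 0 fewer. The median of the 18 was 0.82 (12 more and 1 fewer, Eif4a2, without Ribo-seq replicate 2). The highest was Eif3m, a subunit of the eIF3 complex that recruits the small subunit (1.79, adjusted p = 3.76e-04), and the lowest was Eif4b, a cofactor of the eIF4A helicase (-0.46, adjusted p = 0.0780).

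Of 8 further transcripts known as TOP mRNAs, 5 had fewer footprints (62.5%, against 13.8% of named transcripts) and 1 had more. Their median was -0.84, but -0.18 under library totals, where 3 had fewer and 1 had more. Pabpc1 had normalized RNA counts of 6810, 6887 and 7695 and footprint counts of 1673, 1633 and 1595 (log2 ratio -2.13, SE 0.23, adjusted p = 7.45e-05). Tpt1, which encodes the translationally controlled tumor protein, had 2811, 4150 and 5218 against 758, 746 and 667 (-2.49, adjusted p = 8.66e-05). Footprints of both varied little between libraries. The nucleolar protein gene Npm1 (-1.33), the splicing factor gene Hnrnpa1 (-0.88) and Naca (-0.81), a subunit of the nascent-polypeptide-associated complex, also had fewer, and its partner Btf3 had more (1.47, adjusted p = 4.64e-04). Rack1 (-0.50, adjusted p = 0.0977) and Nap1l1 (-0.27, adjusted p = 0.224) did not pass.

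Genes of the mTORC1 pathway, which senses amino acids and growth factors, lay on both sides. Of 11 transcripts, 5 had fewer (45.5%) and 2 had more footprints (18.2%), against 13.8% and 43.8% of named transcripts. The median of the 11 was -0.48, but 0.15 under library totals. Without Ribo-seq replicate 2, 6 had fewer and the median was -0.81. Fewer were counted on Rps6kb2 (-2.91, adjusted p = 1.57e-04), an S6 kinase, on Deptor (-2.72, adjusted p = 0.00170), an inhibitor within the complex, on Rps6 (-1.80, adjusted p = 1.89e-04), the substrate of S6 kinase, and on Wdr24 (-0.75, adjusted p = 0.0230), of the GATOR2 complex, a call that did not hold without Ribo-seq replicate 1 or 3 or RNA replicate 1 or 2 (adjusted p from 0.0601 to 0.101). Eif4ebp2, a repressor of cap-dependent initiation that mTORC1 inactivates, had a tight -2.16 (SE 0.18, adjusted p = 2.62e-05) from RNA counts of 588, 601 and 584 and footprint counts of 118, 139 and 140. More were counted on Nprl2 (2.29, adjusted p = 2.78e-04), of the GATOR1 complex, and Lamtor4 (1.65, adjusted p = 0.00571), of the lysosomal anchor of the pathway. Mtor itself stood at 0.06 (SE 0.31, adjusted p = 0.885), with overlapping values.

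The mitochondrial counterparts of these groups stood at the other end. Of 32 mitochondrial ribosomal protein transcripts, 25 had more and 0 had fewer footprints (median 1.51), against 43.8% and 13.8% of named transcripts. Mrpl14 was the highest at 2.95 (SE 0.30, adjusted p = 6.15e-05), with normalized RNA counts of 12.03, 11.1 and 16.04 and footprint counts of 97.1, 113 and 96.2. Of 51 transcripts for respiratory chain and ATP synthase subunits, 46 had more and 0 fewer (median 1.52). Ndufb2, of complex I, had 14.8, 20.4 and 20.4 in RNA and 130, 173 and 140 in footprints (2.97, SE 0.27, adjusted p = 3.44e-05). Atp5b, the catalytic beta subunit of ATP synthase and the member with the most RNA, had 795, 1247 and 1219 against 2128, 2602 and 2081 (1.06, adjusted p = 0.00357). In all 3 genes the assays did not overlap. Without Ribo-seq replicate 2, 29 mitochondrial ribosomal and 45 respiratory chain and ATP synthase transcripts had more footprints.

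All 16 proteasome transcripts had more footprints, with a median of 1.93 and a range from 1.17 (Psma4) to 2.86 (Psmb5). Psmb5, a catalytic subunit, had normalized RNA counts of 68.5, 69.9 and 49.96 and footprint counts of 442, 406 and 515 (SE 0.22, adjusted p = 2.18e-05). Of the lysosome and V-ATPase transcripts, 19 of 20 had more and 0 had fewer (median 1.73), Lamp2 being the highest. Psap, the precursor of the saposins, stood at 1.84 (adjusted p = 2.43e-04) with RNA counts of 332, 465 and 401 and footprint counts of 1128, 1849 and 1325. Without Ribo-seq replicate 2 these counts stayed at 16 and 19. Among 18 chaperone transcripts 12 had more (66.7%) and 1 had fewer (5.56%), against 43.8% and 13.8% of named transcripts. The endoplasmic reticulum disulfide isomerase gene Pdia6 was at 2.07 (adjusted p = 7.31e-05), and the cytosolic chaperone gene Hsp90ab1 was the one below, at -1.08 (adjusted p = 0.00396). That low call did not hold under library totals, where 0 chaperone transcripts had fewer. Of 13 spliceosome and hnRNP transcripts 7 had more (53.8%) and 2 had fewer (15.4%), near the shares of named transcripts. The spliceosome median was 0.92, with 7 and 1 called without Ribo-seq replicate 2 and 10 and 0 under library totals. Snrpb2, of the U2 particle, was the highest at 2.01 (adjusted p = 6.75e-05).

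**Figure D3:**
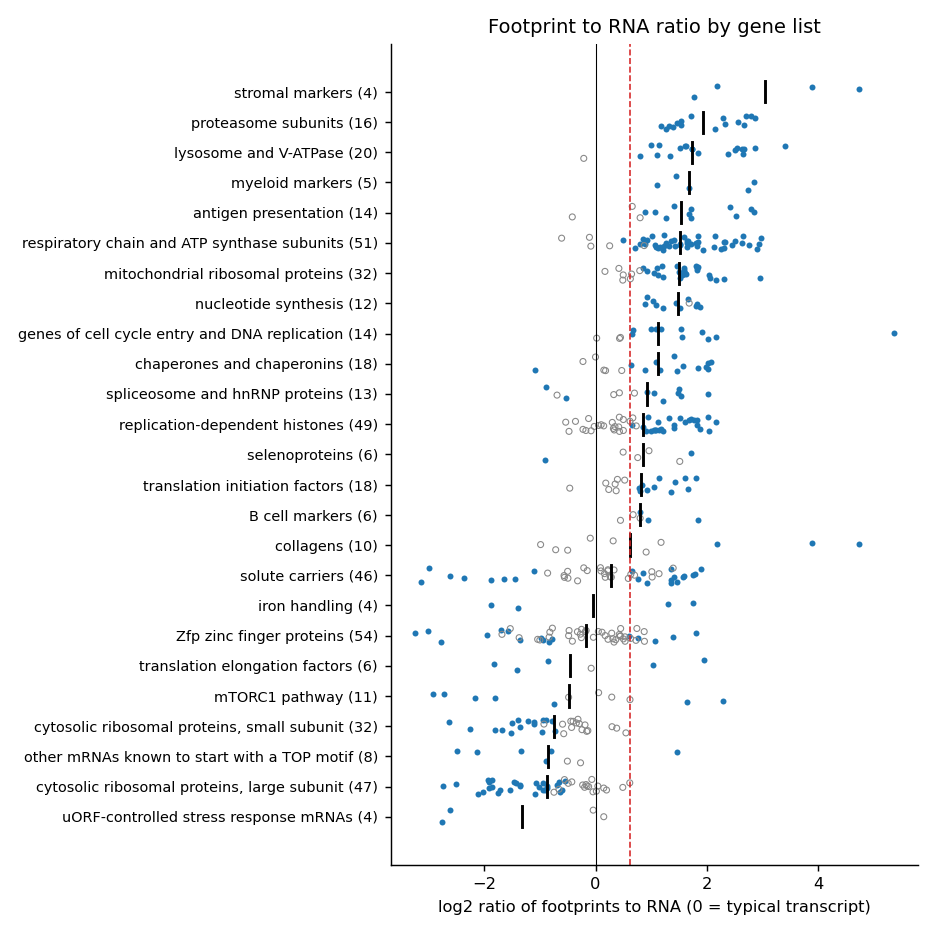
Log2 ratio of footprints to RNA of every tested transcript in 25 gene lists, ordered by median (black bars), with the number of transcripts in parentheses, filled points past an adjusted p of 0.05 and open points not. The dashed red line is the median of all named transcripts (0.62). The 2 cytosolic ribosome lists lie left of that line with every member, and all 16 proteasome transcripts lie right of it.

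Genes of nucleotide synthesis, the pathway that Prps2 feeds, had 11 of 12 transcripts with more and 0 with fewer footprints (median 1.49). Gart, a trifunctional enzyme of purine synthesis, had 384, 551 and 487 in RNA and 1527, 2290 and 1441 in footprints (1.88, SE 0.25, adjusted p = 2.48e-04). Impdh2, which commits inosine monophosphate to guanine nucleotides, had 551, 640 and 609 against 1171, 1289 and 1205 (1.03, adjusted p = 9.19e-04). Shmt2 (0.91, adjusted p = 0.00299) and Mthfd2 (0.90, adjusted p = 0.00278), both of mitochondrial one-carbon metabolism, had more as well. Of 14 transcripts for cell cycle entry and DNA replication, 11 had more (78.6%) and 0 fewer, against 43.8% and 13.8% of named transcripts. Among the 11 were the helicase subunits Mcm6 (1.08, adjusted p = 0.00139) and Mcm7 (1.55, adjusted p = 2.56e-04). The highest of the 11 was Trp53, at 5.36 with all libraries and 1.55 without Ribo-seq replicate 2.

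Replication-dependent histone mRNAs end in a stem-loop in place of a poly(A) tail. Of 49 such transcripts, 26 had more footprints (53.1%, against 43.8% of named transcripts) and 0 had fewer (median 0.86). Their per-replicate medians were 1.45, 0.90 and 0.41, and the members are near-identical in sequence, so reads could move between them. Solute carriers were spread on both sides, with 14 of 46 transcripts above (30.4%) and 8 below (17.4%), where named transcripts had 43.8% and 13.8%. The solute carrier median was 0.27, and 18 and 9 of 47 were called without Ribo-seq replicate 2. The extremes were Slc35d1 (-3.13, adjusted p = 1.87e-04), a nucleotide-sugar transporter, and Slc25a1 (1.90, adjusted p = 0.00383), the mitochondrial citrate carrier. Slc25a5, an ADP/ATP carrier, had 441, 588 and 538 in RNA against 1280, 1401 and 1315 in footprints (1.35, adjusted p = 3.52e-04). Of 54 zinc finger (Zfp) transcripts 11 had fewer (20.4%) and 5 had more (9.26%), or 13 and 5 without Ribo-seq replicate 2. Their median of -0.18 became 0.04 under TMM scaling (9 more and 10 fewer) and 0.48 under library totals (20 more and 5 fewer), so the direction of the split rests on the scale.

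Of the 4 uORF-controlled mRNAs looked up, 2 had fewer footprints (50%) and 0 had more. Named transcripts, the background for each small group here, had 13.8% with fewer and 43.8% with more. The split rests on the scale, since library totals gave 2 with fewer and 2 with more. Slc35a4, a stress-resistant mRNA with a conserved upstream frame, had 198, 189 and 216 in RNA and 28.1, 46.9 and 26.5 in footprints (-2.61, SE 0.26, adjusted p = 5.56e-05). Ppp1r15a, the stress-induced phosphatase subunit for eIF2α, had 94.4, 142 and 159 against 20.3, 27.0 and 13.2 (-2.75, SE 0.35, adjusted p = 1.78e-04). The polyamine genes Odc1 (-0.04, adjusted p = 0.839) and Sat1 (0.15, adjusted p = 0.720) did not pass. Both had more under library totals (0.63, adjusted p = 0.0280, and 0.82, adjusted p = 0.0492). Ferritin light chain (Ftl1), whose mRNA carries an iron-responsive element, was at -1.39 (adjusted p = 0.00170), and Slc25a37, which imports iron into mitochondria, was at -1.88 (SE 0.18, adjusted p = 4.20e-05). The transferrin receptor Tfrc (1.29, adjusted p = 0.00550) and the iron exporter Slc40a1 (1.75, adjusted p = 0.0136) had more, the latter not passing without RNA replicate 2 (adjusted p = 0.0815) or 3 (adjusted p = 0.0608). Among 6 selenoprotein transcripts, whose translation recodes a stop codon, Gpx1 had fewer (-0.91, adjusted p = 0.00949) and 1 of 2 transcripts paired with the name Txnrd2 had more (1.71, adjusted p = 0.0319, but 0.89 with adjusted p = 0.134 without Ribo-seq replicate 2, and adjusted p from 0.0541 to 0.108 without any one RNA library).

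Immune genes and markers of other cells are set beside the 43.8% of named transcripts with more footprints. Of 14 antigen presentation transcripts 11 had more and 0 had fewer, with H2-Aa, a class II chain, at 2.84 (adjusted p = 5.84e-04) and H2-K1, a class I chain, at 0.88 (adjusted p = 0.00425). Of the 6 B cell markers, Vpreb3 (1.84, adjusted p = 1.21e-04), a chaperone of the pre-B cell receptor, Cd72 (0.95, adjusted p = 0.0330) and Blnk (0.81, adjusted p = 0.0379) had more. Cd72 did not pass without RNA replicate 2 or 3 or Ribo-seq replicate 3 (adjusted p from 0.0735 to 0.120), nor Blnk without RNA replicate 1 or 2 or Ribo-seq replicate 2 (adjusted p from 0.0555 to 0.0700). Ms4a1, which encodes CD20, had footprint counts of 467, 46.0 and 447 against RNA counts of 192, 238 and 282. Its ratio was 0.45 (adjusted p = 0.530), and 1.05 (adjusted p = 0.00218) without replicate 2, the only one of its footprint values under the RNA.

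Myeloid markers were counted at low level in all libraries. The 5 that could be looked up, Ctss, Csf1r, Lyz2, C1qb and Cd68, summed to 78.5 to 99.0 CPM in RNA-seq and 306 to 436 CPM in Ribo-seq, none of them at 0, and all 5 had more footprints (1.10 for Ctss to 2.84 for Cd68). Csf1r, the macrophage growth factor receptor, did not pass without RNA replicate 2 or 3 or Ribo-seq replicate 3 (adjusted p from 0.0954 to 0.177). The 4 stromal markers Col1a1, Col1a2, Col3a1 and Sparc summed to 29.0, 18.01 and 16.9 CPM in RNA-seq and to 67.8, 589 and 153 CPM in Ribo-seq, replicate 2 being the highest. All 4 had more footprints, but Col1a1 fell from 2.18 (adjusted p = 0.0419) to 0.95 (adjusted p = 0.180) without that library, and did not pass without RNA replicate 2 (adjusted p = 0.127) or 3 (adjusted p = 0.0998). Of 10 collagen transcripts 3 had more and 0 fewer (2 and 3 without Ribo-seq replicate 2), and their per-replicate medians were -1.43, 1.36 and 1.46. A share of other cells that differed between a lysate's portions cannot be told apart here from a difference in ribosome load, and its part was not tested.

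Upstream ATGs went with lower ratios. The annotated 5′ UTR was complete in the sequence table for 1442 tested transcripts (161 more were cut at 400 bases), and 40.7% of these UTRs held at least 1 ATG on the sense strand, in any frame. The median log2 ratio was 1.05 with no ATG (n = 855), 0.61 with 1 (n = 343), 0.51 with 2 (n = 131), 0.21 with 3 (n = 65) and 0.13 with 4 or more (n = 48). More footprints were called for 62.6% of transcripts without an ATG and 29.2% of those with 4 or more, and fewer for 5.26% and 16.7%. Of all named transcripts 43.8% had more and 13.8% fewer, and of all tested 22.9% and 41.4%. The UTRs were no random draw either. Of the 1603 tested transcripts with a listed 5′ UTR, 405 came from outside the study's list of raised translation efficiency. Longer UTRs hold more ATGs and had lower ratios too, but within each of 5 bins of UTR length the transcripts with an ATG had the lower median, by little among the shortest (0.87 against 1.05, UTRs of 2 to 70 bases) and by more among the longest (0.26 against 1.10, 239 to 400 bases). Across transcripts, Spearman's rho of the ratio was -0.25 with the ATG count, -0.18 with UTR length and -0.11 with GC content, given as a description since the points share the same 6 libraries. The medians of UTRs with an ATG minus those without were -0.58 in all and -0.61 without Ribo-seq replicate 2.

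**Figure D4:**
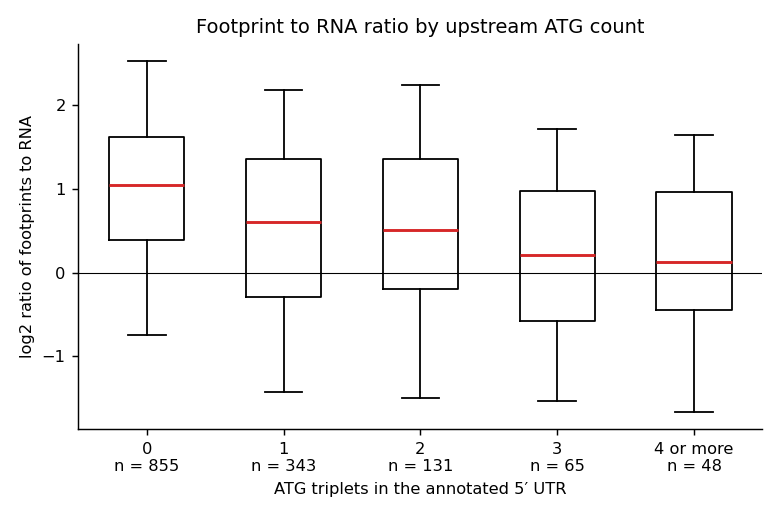
Log2 ratio of footprints to RNA by the number of ATG triplets in a complete annotated 5′ UTR, for 1442 transcripts. Red lines are medians, boxes the middle 50% and whiskers the 5th to 95th percentiles. The medians fall from 1.05 with no ATG to 0.13 with 4 or more, and the boxes overlap throughout.

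A TOP start in the annotated sequence, a C at the first base and then 4 to 15 pyrimidines on the sense strand, was found in 49 of the 1442 UTRs (3.40%). The median ratio was 0.67 with it and 0.87 without it. Only 6 of 45 ribosomal protein transcripts in this set had it. Their median was -0.49, and that of the other 39 was -0.66, so within the ribosomal proteins the annotated TOP start did not go with a lower ratio. The 43 other transcripts with a TOP start had a median of 0.91. The start of an annotated UTR need not be the start of the mRNA in these cells, and the mRNA 5′ ends were not measured.

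Ribo-seq replicate 2 differed from the other Ribo-seq libraries beyond Prps2. Among 2400 transcripts with at least 100 counts in every library, its normalized count was over 2-fold away from the mean of the other 2 Ribo-seq libraries for 96, against 16 for replicate 1 and 10 for replicate 3. In RNA-seq it was 0 for replicate 2, 66 for replicate 1 and 5 for replicate 3. The ratio of same-numbered libraries was over 2-fold from the mean of the other replicates for 179 transcripts in replicate 1. It was so for 141 in replicate 2 and 81 in replicate 3. Of transcripts with at least 100 RNA counts, 340 had no footprint in replicate 2 alone, against 52 in replicate 1 alone and 23 in replicate 3 alone, replicate 2 also being the shallowest. Of the named genes, Dnah8, an axonemal dynein heavy chain, had footprint counts of 153, 1331 and 258, Isyna1, which makes inositol phosphate, 320, 1432 and 355, and Eif4a2, an initiation helicase, 155, 577 and 122. Trp53inp1, a target gene of p53, had 166, 547 and 148, and Dpp4, a surface peptidase, 140, 477 and 244. In the other direction stood Reln, an extracellular matrix glycoprotein, with 2239, 512 and 2801, and Ahnak, a large scaffold protein, with 3421, 833 and 2104, followed by Akr1a1 (524, 234 and 308), Plec (701, 398 and 511) and Snrpa (378, 306 and 401).

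Several calls turned on this library. Reln went from 0.50 (adjusted p = 0.385) to 1.05 (adjusted p = 0.00257) without it, Trp53inp1 from -0.17 (adjusted p = 0.764) to -0.90 (adjusted p = 0.00779), and Plec from -0.77 (adjusted p = 0.0244) to -0.48 (adjusted p = 0.115), Plec also not passing without RNA replicate 2 (adjusted p = 0.117) or Ribo-seq replicate 3 (adjusted p = 0.0705). Eif4a2 changed sign, from 0.18 (adjusted p = 0.769) to -0.72 (adjusted p = 0.0226), as did Dnah8, from 0.49 (adjusted p = 0.541) to -0.87 (adjusted p = 0.0294). The medians of the gene groups moved less, by at most 0.33 (log2) in either direction for the 22 groups of 5 or more tested transcripts. Among the smaller groups, the median of the 4 stromal markers moved by 0.85, from 3.035 to 2.19.

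**Figure D5:**
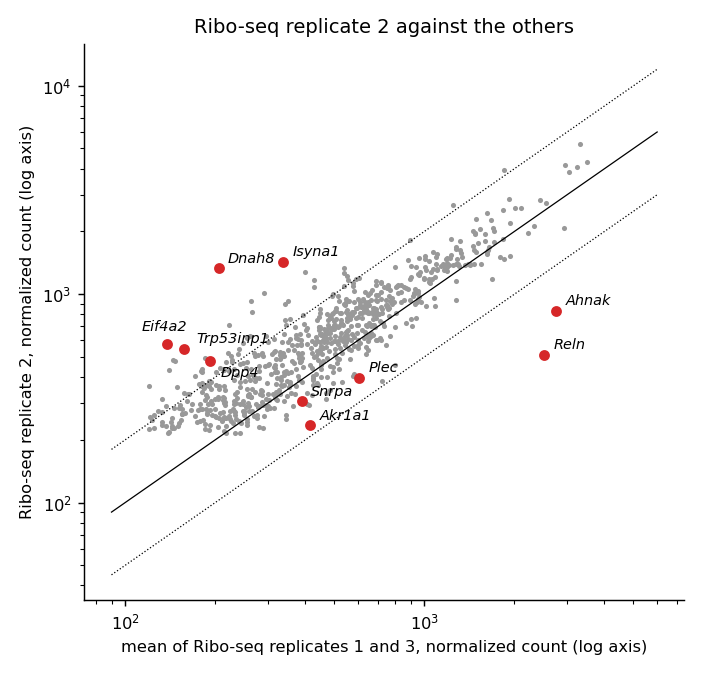
Normalized footprint count in Ribo-seq replicate 2 against the mean of Ribo-seq replicates 1 and 3, for the 755 named transcripts with at least 100 counts in every library, both axes logarithmic. The solid line marks equality and the dotted lines 2-fold, and the 10 labelled genes have the largest differences of the replicate 2 ratio in either direction. Dnah8 (1331) and Isyna1 (1432) lie far above the upper dotted line and Reln (512) and Ahnak (833) far below the lower one.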

How the data were processed

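Lymphoma lysates were used for both assays: RNA-seq was made from total RNA with a stranded kit, and Ribo-seq from RNase I footprints cut from a gel. Per the study's methods and the submitters' processing notes, the authors trimmed Ribo-seq reads with cutadapt 2.3, collapsed molecular identifiers, filtered out rRNA and tRNA, mapped the rest to the longest-coding isoform with Bowtie2 2.3.5 (mm10) and corrected codon counts for stalling. A removal step for ribosomal and transfer RNA is stated for Ribo-seq and not for RNA-seq. For RNA-seq the authors deposited raw counts of reads for each transcript. For Ribo-seq the authors deposited expected counts, none of which above 0 was whole. The stalling correction and the choice of 1 isoform can both change a ratio.

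Here the Ribo-seq values were rounded and the 3 Ribo-seq libraries were tested against the 3 RNA libraries labelled Eμ-Myc/+ Prps2null with edgeR 4.0.16 (limma 3.58.1, R 4.3.3): size factors from the median of ratios over the 6 libraries, the default filter on low counts, the quasi-likelihood test and Benjamini-Hochberg adjustment over all 12386 transcripts tested, with calls at an adjusted p under 0.05. Each standard error is the size of the log2 ratio divided by the root of F. Ratios per replicate used a pseudocount of 0.5. The same-numbered libraries were checked for pairing: their deviations from the assay means correlated at -0.13, 0.01 and -0.16, and the replicate number was used as a block only as an alternative. With 3 libraries per assay, these correlations cannot show that pairing is absent. The other alternatives were TMM scaling, library totals, DESeq2 1.42.0, other filters, and leaving out each library or replicate. Floors cover counting error only.

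Names came only from supplementary tables that pair transcripts with names (2630 transcripts, after 4 spoiled by a spreadsheet were dropped). A name that is paired with several transcripts counts once for each. The gene lists and the rule for naming genes were chosen with earlier results of these data known. H13, which a pattern for histone symbols had matched, is no histone and was left out of that list after its value was seen. The rule took the 10 highest and 10 lowest ratios that passed the test, had a mean of at least 10 CPM in the higher assay, did not overlap between assays, had some footprint and kept their call without Ribo-seq replicate 2, the extremes and the 2 most abundant members of each list (every member of lists under 12), Prps2, Slc15a3, and the 5 largest departures of replicate 2 in each direction. Some members it gave are covered only by counts, and a gene among the lowest ratios is not reported here. The transcripts whose sequences are printed but that this rule did not give were chosen after their values were seen. No genome or protein sequence was used, and genotypes were not compared.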

Additional observations from a re-analysis of the deposited data

How the results depend on the processing

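The number of transcripts with more footprints for their RNA (2832) was 4699 under library totals, and between 2095 and 3230 when a library or replicate was left out. The number with fewer (5123) was 1931 with at least 10 counts required in every library and 10799 with no filter, and between 3786 and 7352 when a library or replicate was left out. TMM scaling gave 3333 and 4586, and DESeq2 gave 2891 and 5170. Blocking on the replicate number gave 2534 and 4847 (Cd72, Csf1r, Col1a1, 1 Txnrd2 transcript and Rpl32 no longer passed, Cd74 and Cd79a now did), and without replicate 2 the block gave 2664 and 4903 (an alternative added after the data were seen). No sample was crossed, since the same-numbered libraries did not deviate together (-0.13, 0.01 and -0.16), which does not settle whether they share a lysate. The 1103 transcripts with at least 100 RNA counts and no footprint were 3936 at 30 RNA counts and 485 at 300. Footprints are limited by depth, 3 counts in the shallowest Ribo-seq library being 3.08 CPM.

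The median of the proteasome transcripts lay 1.32 above that of named transcripts, 0.86 under that filter of 10 counts, 1.57 with the block without replicate 2, and 1.17 to 1.57 when a library or replicate was left out. The same difference for lysosome and V-ATPase transcripts was 1.11, then 0.96, 1.28 and 1.08 to 1.28. The difference with and without a TOP start (-0.20) ran from -0.23 to -0.044 without a replicate. Genes near 0 changed sign: Eef1g was 0.14 under TMM and 0.58 under library totals, Eif4b 0.22, Rack1 0.13 and Nap1l1 0.39 under library totals, Odc1 0.19 and 0.63, Akr1a1 0.19 and 0.61 and Trp53inp1 0.058 and 0.52 under those 2 scalings. With the replicate block Ahnak was -0.11, Eif4a2 -0.12 and Dnah8 -0.059, and with the block without replicate 2 Odc1 was 0.050, Prps2 -1.10, Akr1a1 0.37, Eif4a2 -0.75 and Dnah8 -0.92. Leaving out libraries or replicates gave ranges of -0.13 to 0.10 for Eef1g, -0.087 to 0.099 for Odc1, -0.0018 to 0.41 for Sat1, -0.36 to 0.62 for Mtor, -1.10 to 2.49 for Prps2, -0.57 to 0.65 for Ahnak, -0.54 to 0.41 for Akr1a1, -0.97 to 0.34 for Trp53inp1, -0.78 to 0.76 for Eif4a2 and -0.95 to 1.26 for Dnah8. Calls of named genes were lost in the same direction for 6 under TMM, 8 under library totals and 0 under DESeq2, which gave no adjusted p for Trp53 and Cbr3. The causes were not tested.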
